A study of Mus musculus with 220 samples.

Results

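Single high endothelial cells (HEC) taken from inflamed mouse lymph nodes were divided by their level of the Madcam1 transcript, and all other genes were compared between the 2 classes. Of 219 cells in the series, 64 were inflamed HEC. The classes were chosen by the Madcam1 level of the cell, in FPKM (fragments for each kilobase of transcript, relative to all fragments of the cell). It was 1 FPKM or more in 18 cells, called cells with Madcam1, and below 1 FPKM in 46, called cells without. Inflamed cells 43 and 60 correlated at a Pearson r of 0.988 over genes, where the next closest pair of inflamed cells reached 0.677, and entered as 1 averaged cell.

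Inflammation was caused in C57BL/6 mice by 4% oxazolone, an agent of contact hypersensitivity, applied to the skin, and HEC were sorted from their lymph nodes on day 3. The series also holds 79 homeostatic HEC and 32 homeostatic blood endothelial cells from untreated mice, and 44 dedifferentiated HEC from mice given 1 intraperitoneal dose of LTBR-Ig, a lymphotoxin receptor fusion protein, and sampled on day 7. The sources used here do not give the site of the nodes, the sort gate, the animals or the capture chips. No cell is tied to an animal, so the inflamed HEC are 1 sample, the cells are not replicates of it, and no p-value or standard error was computed.

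High endothelial cells line the venules through which lymphocytes pass from blood into a lymph node. They present sulfated sugars on sialomucins to L-selectin, display chemokines, and bind the integrins of arriving lymphocytes. Madcam1 encodes the mucosal addressin, which binds a gut-homing integrin and is known best from venules of intestinal lymphoid tissue, while many venules of skin-draining nodes in adult mice carry little of it.

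The split used Madcam1 alone, and its values are given only to describe the classes. It was listed at 0 in 26 cells, and the other 20 cells below the limit held 0.27 to 0.88 FPKM, with a median of 0.45. Just above the limit were 8 cells at 1.01 to 2.61 FPKM, with a median of 1.14. The remaining 10 cells lay at 10.75 FPKM or more, of which 6 lay between 358.3 and 2872 FPKM. The cells just inside the limit were thus nearer to those just outside it than to the 10 high cells, and the means of some genes below are also given for the 8 and the 10 cells apart. The same limit was reached by 5 of 79 homeostatic HEC, and by 0 of 44 dedifferentiated HEC and 0 of 32 blood endothelial cells.

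Both classes carried the identity of high endothelium. Glycam1, the secreted sialomucin of these venules, ranged over 329 to 107531 FPKM with a median of 9858 in cells with Madcam1, and 207 to 115345 FPKM with a median of 4267 in cells without, with means of 13.1 ± 2.18 (SD, n = 18) and 12.27 ± 2.66 (SD, n = 46) and a difference of 0.83 on the log2(FPKM + 1) scale, which is used for all means and differences below. Cdh5, the cadherin of endothelial junctions, ranged over 23.3 to 611 FPKM with a median of 62.5 in cells with Madcam1, and 11.7 to 501 FPKM with a median of 70.8 in cells without. Every one of the 64 cells held both transcripts, and the ranges of the classes overlapped almost wholly. Cells with Madcam1 had a median of 3766.5 genes at 1 FPKM or more against 4089 in cells without, and an approximated depth of 2180575 against 2479137 fragments (738215 to 2735430 and 938838 to 4005328). Among cells without Madcam1, 8 of 46 carried 3 or more cell cycle genes at 10 FPKM and 3 of 46 carried B lymphocyte and general leukocyte markers. No cell with Madcam1 did either (0 of 18, which allows a share of up to 18.5%, the upper end of an exact Clopper-Pearson 95% interval that covers counting error over cells only).

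The upstream regions of 3 genes are shown because these genes carry results described below. Icam1, an adhesion molecule, was higher in cells with Madcam1, and the class II genes H2-Aa and H2-Eb1 were lower and lie close together on chromosome 17. Each is the run of 250 bases before the gene's start in RefSeq (build GRCm38.p6), read 5′ to 3′ along the gene. Capitals in H2-Aa and H2-Eb1 mark the letters ATTGG and CTGATTGG on either strand, the core of the Y box, a motif of class II promoters. Capitals in Icam1 mark GGAAATTCC, a form of the NF-kB motif. The regions are chr17:34287824-34288073 (minus strand) for H2-Aa, chr17:34305617-34305866 (plus strand) for H2-Eb1 and chr9:21015690-21015939 (plus strand) for Icam1.
H2-Aa: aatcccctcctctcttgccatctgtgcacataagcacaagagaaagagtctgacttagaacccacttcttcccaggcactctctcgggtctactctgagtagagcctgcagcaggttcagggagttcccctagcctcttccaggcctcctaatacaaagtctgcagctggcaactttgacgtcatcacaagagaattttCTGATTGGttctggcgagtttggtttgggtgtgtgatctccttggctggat
H2-Eb1: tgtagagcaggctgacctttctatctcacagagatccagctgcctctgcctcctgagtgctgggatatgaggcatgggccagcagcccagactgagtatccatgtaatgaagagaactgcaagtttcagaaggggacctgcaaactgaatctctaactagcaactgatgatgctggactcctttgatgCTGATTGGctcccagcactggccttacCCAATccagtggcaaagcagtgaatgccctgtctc
Icam1: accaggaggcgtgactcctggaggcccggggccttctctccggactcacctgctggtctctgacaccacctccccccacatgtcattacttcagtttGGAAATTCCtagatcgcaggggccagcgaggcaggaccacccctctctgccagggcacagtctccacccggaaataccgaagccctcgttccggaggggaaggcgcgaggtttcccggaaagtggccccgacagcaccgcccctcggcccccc
The 8-letter form lay 51 to 44 bases before the start of H2-Aa and 62 to 55 bases before that of H2-Eb1, which also had CCAAT, the core on the other strand, 35 to 31 bases before. Of 32536 such upstream windows, 3.8% held the 8-letter form on either strand and 33.8% held the core of 5 letters, which the longer form includes. The Icam1 match lay 153 to 145 bases before the start, and 0.289% of windows held those letters. These are matches of letters, and no binding was measured.

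Over the 9897 genes that reached 1 FPKM in 10% of the cells of either class, 294 (2.97%) were higher by 1 or more in cells with Madcam1 and 763 (7.71%) were lower, 1057 (10.7%) in all. The median of all these genes was -0.09. With each cell rescaled by the median ratio of its genes, 393 were higher and 609 lower, so the surplus of lower genes was smaller. The 12 genes furthest in each direction, among the 3732 that reached 1 FPKM in 50% of the cells of a class, are described first. In that set 5.36% of genes were higher by 1 or more and 14.3% were lower (19.7% in all), and these 24 genes head that ranking by choice.

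**Figure D1:**
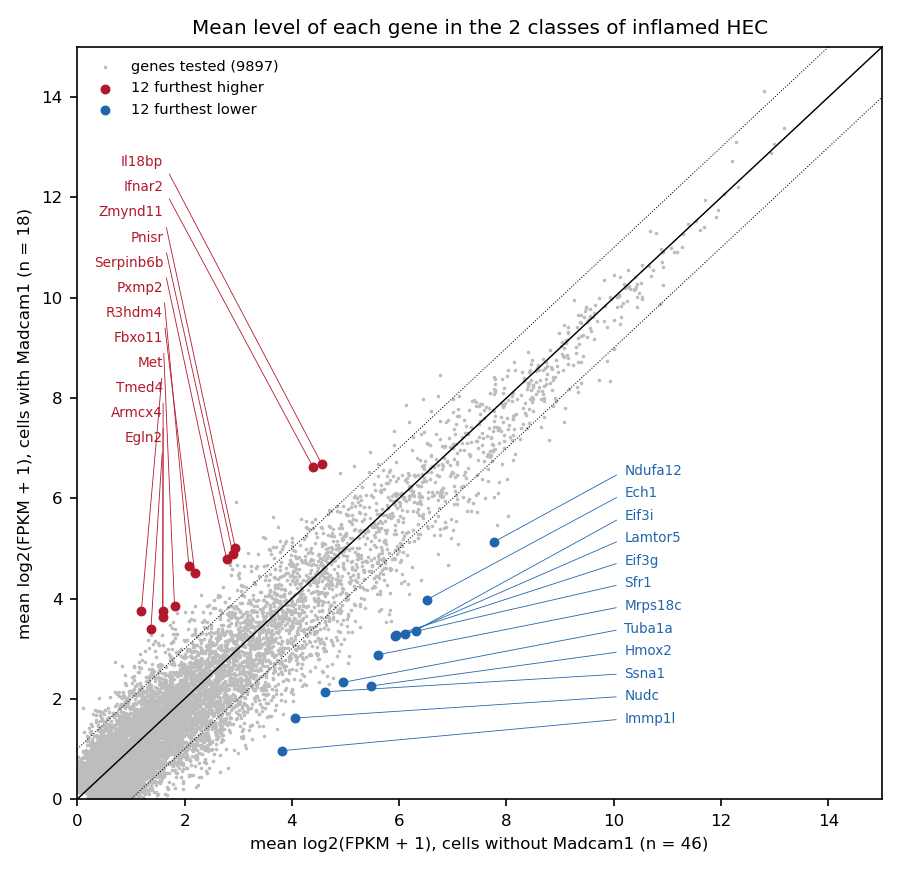
Each point is a gene, with its mean log2(FPKM + 1) in the 46 inflamed HEC without Madcam1 on the x axis and in the 18 with it on the y axis; the solid line marks equal means and the dotted lines a difference of 1. The 12 genes furthest higher (red, 1.99 to 2.56) and furthest lower (blue, -2.44 to -3.21) lie at low to middle levels.

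The genes furthest higher in cells with Madcam1 included receptors of a growth factor and of type I interferon and a protein that binds a cytokine. Met, the receptor of hepatocyte growth factor (chr6:17463800-17573980 in GRCm38), ranged over 0 to 252 FPKM with a median of 18.6 in cells with Madcam1, and 0 to 36.9 FPKM with a median of 0.255 in cells without, with means of 3.75 ± 2.24 (SD, n = 18) and 1.19 ± 1.62 (SD, n = 46) and a difference of 2.56. It reached 1 FPKM in 15 of 18 cells with Madcam1 and 16 of 46 without, and 17 of the 18 cells with Madcam1 lay above the median of the others. Its mean was 4.47 in the 10 high cells, 2.85 in the 8 cells of 1 to 10 FPKM of Madcam1 and 1.19 in cells without. Ifnar2, a chain of the type I interferon receptor (chr16:91372783-91405589), ranged over 1 to 716 FPKM with a median of 175 in cells with Madcam1, and 0 to 541 FPKM with a median of 25.6 in cells without, with means of 6.62 ± 2.43 (SD, n = 18) and 4.39 ± 2.83 (SD, n = 46) and a difference of 2.23. All 18 cells with Madcam1 reached 1 FPKM of it, against 40 of 46. Il18bp, a secreted protein that binds interleukin 18 and blocks it (chr7:102014885-102018690), ranged over 0 to 1253 FPKM with a median of 248 in cells with Madcam1, and 0 to 1184 FPKM with a median of 29.2 in cells without, with means of 6.68 ± 3.29 (SD, n = 18) and 4.56 ± 3.09 (SD, n = 46) and a difference of 2.12. For each of these genes the ranges of the classes overlapped, and cells without Madcam1 at high levels were present.

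The largest difference among the higher genes was that of Pxmp2, a channel of the peroxisome membrane, at 2.56. It ranged over 0 to 536 FPKM with a median of 17.9 in cells with Madcam1, and 0 to 588 FPKM with a median of 0.43 in cells without, and it was present at 1 FPKM in 13 of 18 cells with Madcam1 and 18 of 46 without. Its mean was 5.77 in the 10 high cells, 3.23 in the 8 cells of 1 to 10 FPKM of Madcam1 and 2.08 in cells without. R3hdm4, whose product has a nucleic acid binding domain, differed by 2.31. Its 7 highest cells all had Madcam1, since they exceeded the highest cell without (44.6 FPKM) and reached 489.6 FPKM. The other higher genes were Tmed4 (cargo carrier of the early secretory path, 2.15), Zmynd11 (reader of a histone mark, 2.05), Armcx4 (2.04), Fbxo11 (substrate adaptor of a ubiquitin ligase, 2.04), Egln2 (oxygen-dependent prolyl hydroxylase of hypoxia-inducible factors, 2.02), Serpinb6b (serine protease inhibitor, 2.0) and Pnisr (nuclear speckle protein, 1.99). Armcx4 was at 4.48 in the 10 high cells, 2.57 in the 8 cells of 1 to 10 FPKM of Madcam1 and 1.59 in cells without, and Fbxo11 was at 4.73 in the 10 high cells, 2.75 in the 8 cells of 1 to 10 FPKM of Madcam1 and 1.81 in cells without. Both were thus highest in the 10 high cells. Serpinb6b was at 6.24 in the 8 cells of 1 to 10 FPKM of Madcam1, 3.62 in the 10 high cells and 2.78 in cells without, and its difference was 0.33 at a Madcam1 limit of 10. It belongs to a family of close copies between which reads may be split.

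The genes furthest lower included subunits of a translation initiation factor and proteins of the mitochondrion. Hmox2, the constitutive haem oxygenase (chr16:4726361-4766742), ranged over 0 to 684 FPKM with a median of 0.64 in cells with Madcam1, and 0 to 956 FPKM with a median of 136 in cells without, with means of 2.26 ± 3.19 (SD, n = 18) and 5.47 ± 3.33 (SD, n = 46) and a difference of -3.21. Only 3 of the 18 cells with Madcam1 lay above the median of the others. Eif3i and Eif3g, subunits of the initiation factor that loads messenger RNA on the ribosome, differed by -2.95 and -2.66. Eif3i (chr4:129591960-129600648) ranged over 0 to 553 FPKM with a median of 4.91 in cells with Madcam1, and 0 to 1215 FPKM with a median of 101 in cells without, and Eif3g (chr9:20894349-20898623) over 0 to 549 FPKM with a median of 2.63 in cells with Madcam1, and 0 to 1479 FPKM with a median of 114 in cells without. Eif3i reached 1 FPKM in 10 of 18 cells with Madcam1 and 43 of 46 without, and its mean was 4.32 in the 10 high cells, 2.16 in the 8 cells of 1 to 10 FPKM of Madcam1 and 6.31 in cells without.

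Ndufa12, a subunit of respiratory complex I (chr10:94198720-94221443), ranged over 0 to 476 FPKM with a median of 35.2 in cells with Madcam1, and 17.3 to 966 FPKM with a median of 242 in cells without, with means of 5.13 ± 3.2 (SD, n = 18) and 7.77 ± 1.18 (SD, n = 46) and a difference of -2.64. All 46 cells without Madcam1 held it, and 7 of the 18 cells with Madcam1 lay below the lowest of them. Mrps18c, a protein of the mitochondrial ribosome, differed by -2.73 and ranged over 0 to 383 FPKM with a median of 1.73 in cells with Madcam1, and 0 to 1024 FPKM with a median of 151 in cells without. Immp1l, a peptidase of the inner mitochondrial membrane, differed by -2.86 and had a median of 0 in cells with Madcam1 and 9.38 FPKM in cells without. Ech1, an enzyme of fatty acid breakdown, differed by -2.54.

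The remaining lower genes were Lamtor5 (part of the lysosomal complex that recruits mTOR complexes, -2.82), Sfr1 (recombination repair cofactor, -2.67), Tuba1a (alpha tubulin, -2.62), Ssna1 (microtubule-binding protein, -2.49) and Nudc (dynein-associated chaperone, -2.44). Tuba1a has near-identical copies, between which reads may be split. Of the 24 genes, 21 kept a difference of 1 or more in the same direction under all 13 alternative settings. The other 3 were Serpinb6b (above), Armcx4, at 0.92 with a pseudocount of 10, and Ndufa12, at -0.97 as a ratio of arithmetic means. For single genes the 13 settings leave out changes of the filter. They count the lowest and the highest value with 1 cell left out separately, and the larger of these in size cannot end a call. Of 51 other members of the gene and marker lists described next with a difference of 1 or more, 33 kept it at the limit of 10. It was kept by 31 against 18 matched cells without Madcam1 and by 13 with a pseudocount of 10. The 24 genes were chosen for the largest differences and so lay further from 1. These tallies therefore do not compare how reliable the genes are. Matched cells are those nearest in gene number to the cells with Madcam1.

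**Figure D2:**
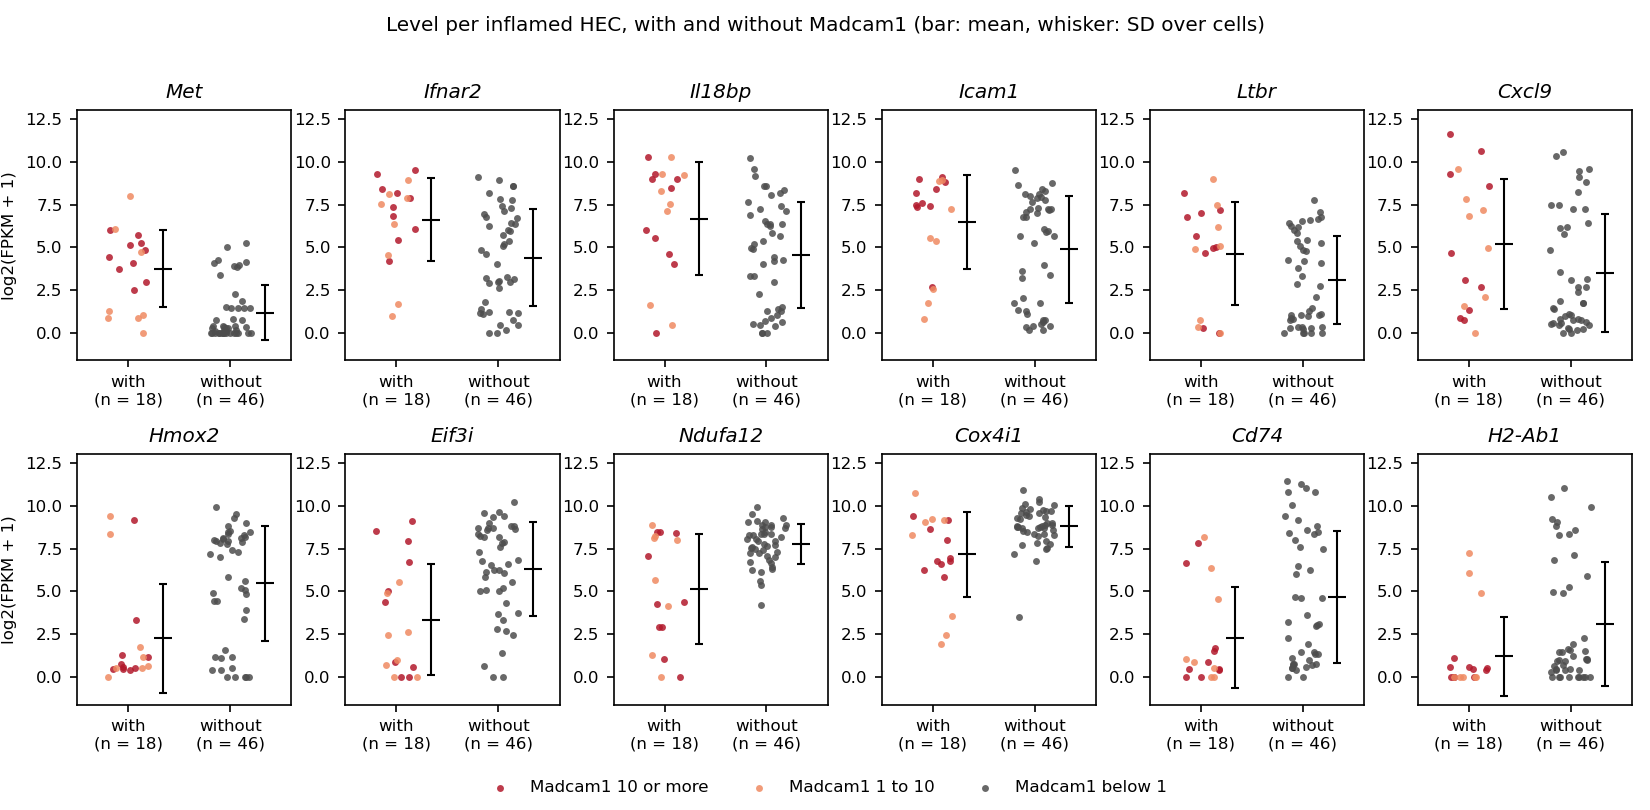
Each point is an inflamed HEC, with log2(FPKM + 1) of a gene on the y axis, coloured by its Madcam1 level in FPKM; bars and whiskers are the mean and SD over the 18 cells with and the 46 without Madcam1. The classes overlap for all 12 genes shown, and Ndufa12 and Cox4i1 show the narrowest spread among cells without Madcam1.

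Of 40 genes of lymphocyte entry in 3 lists that passed the filter on low values, 5 (12.5%) differed by 1 or more, near the 10.7% of all genes tested. Of 15 sialomucins and enzymes that build L-selectin ligands, 14 passed, 0 were higher by 1 or more and 1 was lower, with a median of 0.09. Glycam1 differed by 0.83 (0.0885 at the limit of 10), Chst4, the sulfotransferase of these ligands, by 0.67, and Fut7, their fucosyltransferase, by 0.48. The lower gene was St3gal4, a sialyltransferase, which ranged over 0 to 242 FPKM with a median of 4.07 in cells with Madcam1, and 0 to 932 FPKM with a median of 30.7 in cells without, a difference of -1.77. Glycam1 was at or above the median of all inflamed cells in 12 of 18 cells with Madcam1 (66.7%, exact interval 41% to 86.7%) and in 20 of 46 without (43.5%, 28.9% to 58.9%), and these intervals overlap.

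Among the adhesion molecules, 15 of 16 measured passed, 1 was higher and 1 lower, with a median of 0.02. Icam1, the ligand of the lymphocyte integrin LFA-1 (chr9:21015985-21028817), ranged over 0.75 to 556 FPKM with a median of 174 in cells with Madcam1, and 0.14 to 725 FPKM with a median of 59.8 in cells without, with means of 6.5 ± 2.74 (SD, n = 18) and 4.89 ± 3.12 (SD, n = 46) and a difference of 1.61. The 10 cells high in Madcam1 all reached 1 FPKM of Icam1 and averaged 7.61 ± 1.85 (SD, n = 10), while the 8 cells of 1 to 10 FPKM averaged 5.13 ± 3.16 (SD, n = 8), near the cells without. Its difference was 2.68 at a Madcam1 limit of 10 and 0.90 as a ratio of arithmetic means. Jam2, a junctional adhesion molecule, differed by -1.02 but by 0.15 at the limit of 10. It was at 4.51 in the 10 high cells, 2.57 in the 8 cells of low Madcam1 and 4.68 in cells without. Selp, the platelet and endothelial selectin, differed by 0.78, Vcam1, a ligand of another lymphocyte integrin, by -0.29, and Sele, the inducible endothelial selectin, by -0.34.

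The chemokine list had 11 of 17 members past the filter, of which 2 were higher and 0 lower, with a median of 0.16. Ccl21a, the chemokine that recruits naive lymphocytes and has near-identical gene copies, ranged over 491 to 110744 FPKM with a median of 25651 in cells with Madcam1, and 87.5 to 141409 FPKM with a median of 15189.9 in cells without, a difference of 1.33. That difference was 0.66 without the 8 cycling cells and 0.24 as a ratio of arithmetic means. The share of Glycam1 and Ccl21a together in the summed FPKM had medians of 7.15% with Madcam1 and 2.95% without. Cxcl9, an interferon-induced chemokine for activated T cells (chr5:92321347-92328079), ranged over 0 to 3114 FPKM with a median of 27.8 in cells with Madcam1, and 0 to 1485 FPKM with a median of 2.5 in cells without, with means of 5.2 ± 3.81 (SD, n = 18) and 3.5 ± 3.42 (SD, n = 46) and a difference of 1.7. Its neighbour in the family, Cxcl10, differed by -0.1, with 1 FPKM reached in 10 of 18 cells with Madcam1 and 28 of 46 without.

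Other genes linked to mucosal high endothelium gave little to compare. Nkx2-3, a transcription factor of gut and spleen vessels, and Cxcl13, a B cell chemokine, were listed at 0 in all 64 cells. St6gal1, the sialyltransferase of B cell ligands in mucosal venules, reached 1 FPKM in 0 of 18 cells with Madcam1 and 4 of 46 without. Nr2f2, the transcription factor of venous identity, ranged over 2.36 to 339 FPKM with a median of 69.2 in cells with Madcam1, and 0.68 to 540.0 FPKM with a median of 74.9 in cells without, a difference of -0.29. It was at 6.73 in the 10 cells high in Madcam1 and 4.57 in the 8 cells of 1 to 10 FPKM, and its difference at the limit of 10 was 0.89.

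Of the 23 measured genes of tumour necrosis factor and lymphotoxin receptor signalling, 3 (13%) differed by 1 or more, near the 10.7% of all genes, and the median was -0.01. Ltbr, the lymphotoxin beta receptor that maintains these venules (chr6:125306571-125313885), ranged over 0 to 500.5 FPKM with a median of 32.5 in cells with Madcam1, and 0 to 219 FPKM with a median of 6.05 in cells without, with means of 4.64 ± 3.02 (SD, n = 18) and 3.1 ± 2.59 (SD, n = 46) and a difference of 1.54. Tnfrsf1a, the main receptor of tumour necrosis factor, ranged over 3.08 to 465 FPKM with a median of 189.9 in cells with Madcam1, and 0.2 to 459 FPKM with a median of 80.1 in cells without, a difference of 1.16, which was 0.75 in matched cells and 0.67 as a ratio of arithmetic means. Nfkb2, the NF-kB subunit of the non-canonical path, was lower at -1.24.

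Of 25 genes of the interferon response, 24 passed, 2 were higher and 0 lower, with a median of 0.17, beside 2.97% of all genes higher. The higher genes were Igtp and Gbp6, interferon-induced GTPases (1.28 and 1.14). Igtp ranged over 0 to 580.2 FPKM with a median of 84.4 in cells with Madcam1, and 0 to 1325 FPKM with a median of 4.53 in cells without. Gbp6 has close copies, and its reads may be split among them. In matched cells 8 of 24 members were higher and the median was 0.62. Over all genes 586 of 10063 were higher in matched cells, against 294 of 9897 with all cells. At the limit of 10, 7 members were higher, with a median of 0.74, beside 650 of 10412 genes higher over all genes. Without the 8 cycling cells 1 member was higher and the median was 0.02, beside 343 of 9898 genes higher over all genes.

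Antigen presentation genes divided by class, a division made after their values were seen. Of the 17 of 18 genes that passed, 1 was higher and 4 lower, beside 2.97% of all genes higher and 7.71% lower. Tap2, a peptide transporter of the class I path, was higher by 1.45, and the 12 class I path genes had a median of 0.13. H2-K1, a class I heavy chain, differed by 0.5, and B2m, its light chain, by 0.2.

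The 4 lower genes were all of the class II path, in which peptides are shown to helper T cells. Cd74, the invariant chain, ranged over 0 to 284 FPKM with a median of 0.845 in cells with Madcam1, and 0 to 2817 FPKM with a median of 9.79 in cells without, with means of 2.3 ± 2.93 (SD, n = 18) and 4.7 ± 3.86 (SD, n = 46) and a difference of -2.39. H2-Ab1 (chr17:34257689-34269419) ranged over 0 to 149.7 FPKM with a median of 0.18 in cells with Madcam1, and 0 to 2077 FPKM with a median of 1.23 in cells without, a difference of -1.87. Its mean was 0.37 in the 10 high cells, 2.28 in the 8 cells of 1 to 10 FPKM of Madcam1 and 3.09 in cells without. H2-Aa, its partner chain, differed by -1.14 and H2-Eb1 by -1.41, and H2-Eb1 reached 1 FPKM in 1 of 18 cells with Madcam1 and 12 of 46 without. The upstream letters of H2-Aa and H2-Eb1 are those printed above. At 10 FPKM, 3 or more class II genes were present in 0 of 18 cells with Madcam1 and in 11 of 46 without (23.9%, exact interval 12.6% to 38.8%). The exact interval for 0 of 18 reaches 18.5%, so the intervals overlap. Most cells without Madcam1 also fell short of this mark of 3 class II genes. At 1 FPKM, Cd74 was present in 35 of these 46 cells, H2-Ab1 in 25, H2-Aa in 20 and H2-Eb1 in 12.

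Of those 11 cells, 3 were the cells that carried leukocyte markers, and B lymphocytes themselves express class II. The 8 B lymphocyte and plasma cell markers summed to 0 to 79.4 FPKM in cells with Madcam1 (median 0.205) and 0 to 946.7 FPKM in cells without (median 0.345), and none of the 8 passed the filter. Without those 3 cells the differences were -1.94 for Cd74, -1.39 for H2-Ab1, -0.99 for H2-Eb1 and -0.58 for H2-Aa, so that 2 of the 4 stayed at 1 or more. H2-Aa differed by -0.41 in matched cells.

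**Figure D3:**
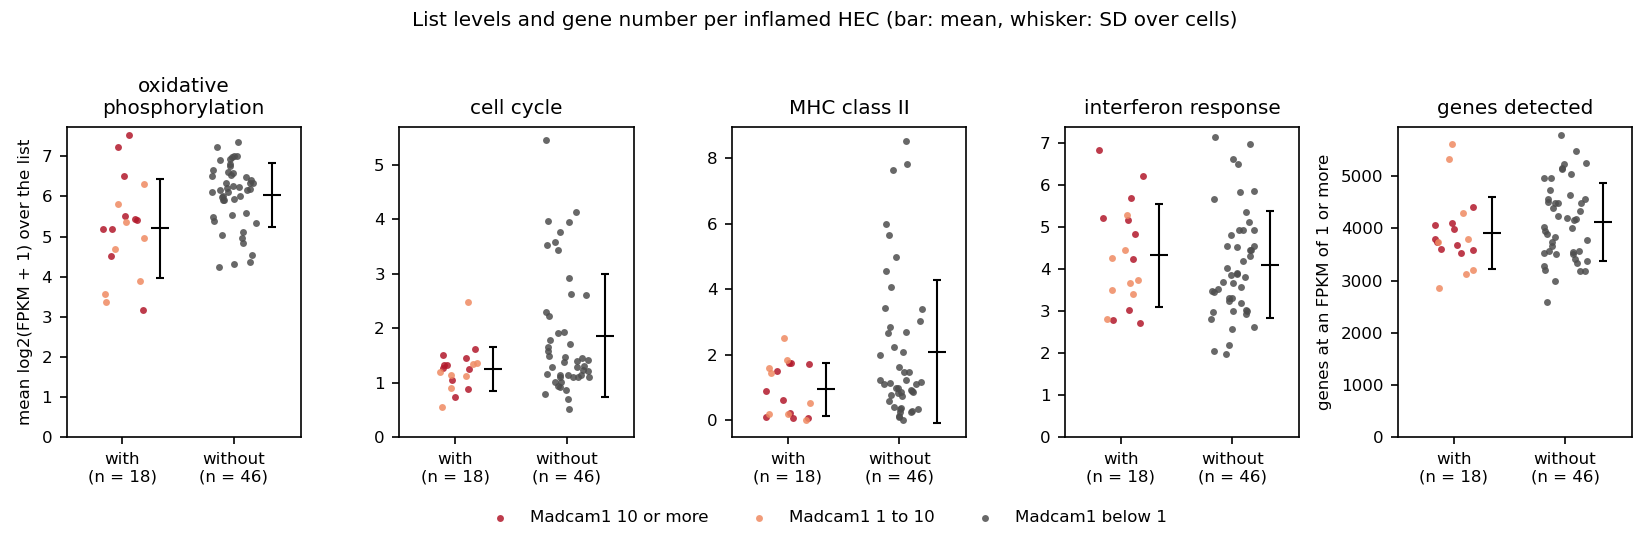
Each point is an inflamed HEC, with the mean log2(FPKM + 1) over a gene list, or in the last panel the number of genes at 1 FPKM or more, on the y axis; colours give the Madcam1 level in FPKM, and bars and whiskers the mean and SD of each class. The highest cell cycle and MHC class II levels belong to cells without Madcam1, and 4 of 18 cells with Madcam1 lie below all 46 others for oxidative phosphorylation.

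Oxidative phosphorylation, the respiratory chain of mitochondria, was the list with the most members lower. All 20 members passed, and 0 were higher and 9 lower. Beside this, 7.71% of all genes tested were lower, and 14.3% of those at 1 FPKM in 50% of a class. Of the 20 differences, 18 were negative, and the list median was -0.79 against -0.09 over all genes. The 9 were Ndufb9 and Ndufv1 of complex I, Sdha and Sdhb of complex II, Uqcrc2 and Uqcrq of complex III, Cox4i1 and Cox5a of complex IV, and Cycs, the cytochrome that links the last 2. Cox4i1 (chr8:120668222-120674207) ranged over 2.81 to 1752 FPKM with a median of 186 in cells with Madcam1, and 10.6 to 1977 FPKM with a median of 450.1 in cells without, with means of 7.16 ± 2.47 (SD, n = 18) and 8.79 ± 1.19 (SD, n = 46) and a difference of -1.63. Uqcrc2 ranged over 0 to 455 FPKM with a median of 1.21 in cells with Madcam1, and 0 to 453 FPKM with a median of 18.1 in cells without, a difference of -1.99. Uqcrq differed by -1.73 and Ndufb9 by -1.73.

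Per cell, the mean log2(FPKM + 1) over the 20 genes was 5.2 ± 1.23 (SD, n = 18) with Madcam1 and 6.04 ± 0.79 (SD, n = 46) without. Cells of 1 to 10 FPKM of Madcam1 were lowest, at 4.74 ± 1.07 (SD, n = 8), and the 10 high cells were at 5.57 ± 1.28 (SD, n = 10), so both tiers lay below the cells without. Of the 18 cells, 14 lay below the median of the cells without, and 1 lay above their highest. At the limit of 10, however, 2 members were higher and 3 lower, with a median of -0.42, and Cox5a turned to 1.03. In matched cells 7 were lower and the median was -0.78, and without the 8 cycling cells 5 were lower and the median was -0.69. Over all genes, 650 were higher and 882 lower of 10412 at the limit of 10. In matched cells 857 of 10063 genes were lower, and without the cycling cells 662 of 9898. Sdha fell below a difference of 1 in 10 of the 13 settings for single genes and Cycs in 9. Cells with Madcam1 had fewer detected genes and less depth at the median, as given above, and the part of these in the result was otherwise not tested.

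The cell cycle list had 23 of 24 members past the filter, with a median of -0.69. Beside 7.71% of all genes lower, 0 members were higher and 5 lower. These were Hmgb2, a chromatin protein of dividing cells (-1.75), Stmn1, which destabilises microtubules (-1.7), Pcna, the sliding clamp of DNA replication (-1.52), Cdk1, the kinase that drives mitosis (-1.17), and Mcm6, a subunit of the replicative helicase (-1.16). Cdk1 ranged over 0 to 2.27 FPKM with a median of 0 in cells with Madcam1, and 0 to 260.1 FPKM with a median of 0.12 in cells without. Cells at 10 FPKM of 3 or more of 8 cycle genes made up 17.4% of cells without Madcam1 (8 of 46, exact interval 7.82% to 31.4%) and 0 of 18 with it, for which the interval reaches 18.5%, so the intervals overlap. Without those 8 cells the list had 2 members lower and a median of -0.25, beside 662 of 9898 genes lower over all genes.

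Immediate early genes, transcribed within minutes of a stimulus or of cell handling, were listed with heat shock genes. All 16 passed, 0 were higher and 4 lower, beside 7.71% of all genes lower, and the median was -0.43. It was -0.16 in matched cells, where 3 were lower, beside 857 of 10063 genes lower over all genes. Fos ranged over 0 to 665 FPKM with a median of 0.825 in cells with Madcam1, and 0 to 1851 FPKM with a median of 3.25 in cells without, a difference of -1.47, and its partners Jun and Junb differed by -1.18 and -1.43. Glycolysis had 13 of 14 members past the filter, 0 higher and 2 lower (Tpi1 -1.11, Pgk1 -1.3), again beside 7.71% of all genes lower. The glycolysis median was -0.48. At the limit of 10 and in matched cells 1 member was higher and 0 lower, with medians of -0.15 and -0.27. Pgk1 turned to 0.34 in matched cells. Over all genes, 650 were higher and 882 lower of 10412 at the limit of 10. In matched cells 586 genes were higher and 857 lower of 10063. Of 23 genes of endoplasmic reticulum folding and secretion, 0 were higher and 4 lower (2 in matched cells), with a median of -0.17. Beside this, 7.71% of all genes were lower, and 14.3% of those at 1 FPKM in 50% of a class.

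**Figure D4:**
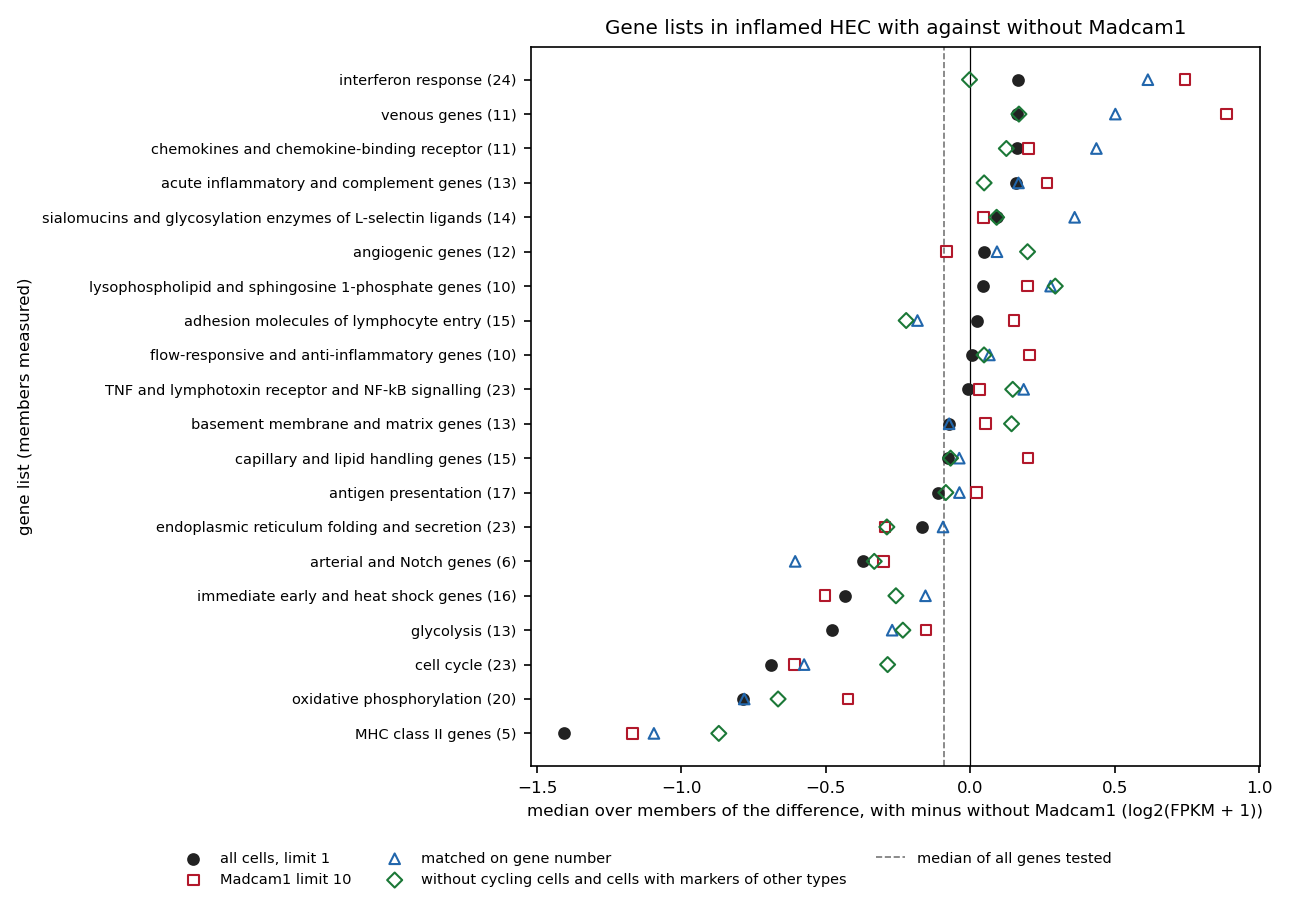
The x axis gives, for each gene list on the y axis, the median over its measured members of the difference in mean log2(FPKM + 1), with minus without Madcam1, and the symbols stand for the choice of cells. The dashed line is the median of all genes (-0.09). With all cells and a limit of 1 (filled), MHC class II lies furthest left (-1.41). It was split from the antigen presentation list (-0.11) after the values were seen, so its rank follows in part from that choice. Of the other lists, oxidative phosphorylation (-0.79) and cell cycle (-0.69) lie furthest left.

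Of 26 venous, angiogenic and arterial genes that passed, 4 (15.4%) differed by 1 or more, beside 10.7% of all genes. Of the venous genes 11 of 11 passed and 2 were higher, Bgn, a matrix proteoglycan (1.18), and Vwf, the clotting factor carrier of venous endothelium (1.02). Aplnr, the apelin receptor of sprouting and venous vessels, was lower (-1.22). At the limit of 10, 4 venous genes were higher and 1 lower, beside 650 higher and 882 lower of all 10412 genes. The venous median moved from 0.16 to 0.89. The angiogenic list had 12 of 17 past the filter, 0 higher and 2 lower (Aplnr and Pdgfb, a growth factor for pericytes, -1.09), with a median of 0.05. The arterial list had 6 of 14 past the filter and none past 1, with a median of -0.37.

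The flow-responsive, matrix, capillary and lysophospholipid lists had 1 member each past a difference of 1, beside 10.7% of all genes tested. The members of these lists that passed the filter numbered 10, 13, 15 and 10. Nos3, the endothelial nitric oxide synthase, was higher by 1.3, with 1 FPKM reached in 8 of 18 cells with Madcam1 and 11 of 46 without. Lama5, a laminin chain of the venule wall, was higher by 1.6 and ranged over 0.04 to 193 FPKM with a median of 13.9 in cells with Madcam1, and 0 to 123 FPKM with a median of 3.19 in cells without. Sparcl1, an extracellular glycoprotein, was lower (-1.13), as was Lpar6, a receptor of lysophosphatidic acid (-1.3). Sparcl1 fell below a difference of 1 in 6 of the 13 settings for single genes, and Lpar6 in 2. None of the 13 measured acute inflammatory and complement genes that passed differed by 1 or more, and their median was 0.16.

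The 79 homeostatic HEC gave a comparison in cells that the rule above did not use. Madcam1 reached 1 FPKM in 5 of them, so the values rest on 5 cells against 74, and the 5 had a median of 4154 detected genes against 3799.5. Over the 9954 genes tested there, 21.8% were higher by 1 or more with Madcam1 and 5.77% lower (27.5% in all), and the median was 0.23. With the 74 reduced to 5 cells of matched gene number, 2207 genes were higher and 2019 lower, with a median of 0.02. With the 50% filter, 33.9% were higher, 7.25% lower and 41.2% either. Of the 12 genes furthest higher in inflamed cells, 8 were also positive in homeostatic cells and 3 by 1 or more: Tmed4 (1.72), Zmynd11 (1.52) and Pxmp2 (1.01). Il18bp (-2.53), Serpinb6b (-1.88), Fbxo11 (-1.22) and Met (-0.43) went the other way. In matched cells 4 of the 12 were positive.

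Of the 12 genes furthest lower, 3 were also negative in homeostatic cells, with Eif3i at -1.11, Tuba1a at -0.39 and Nudc at -0.17, and 5 were in matched cells. Over all genes of the 50% filter, 54.4% of those positive and 39% of those negative in inflamed cells had the same sign in homeostatic cells, beside 66.7% and 25% of the named genes. Icam1 was at -0.81, Ltbr at -0.97 and Cxcl9 at -1.74 in homeostatic cells, against 1.61, 1.54 and 1.7 in inflamed ones. The medians were 0.30 for oxidative phosphorylation and 1.09 for the cell cycle, against -0.79 and -0.69 in inflamed cells. Beside these, the median over all genes was 0.23 in homeostatic and -0.09 in inflamed cells. The difference between the 2 conditions was not tested.

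**Figure D5:**
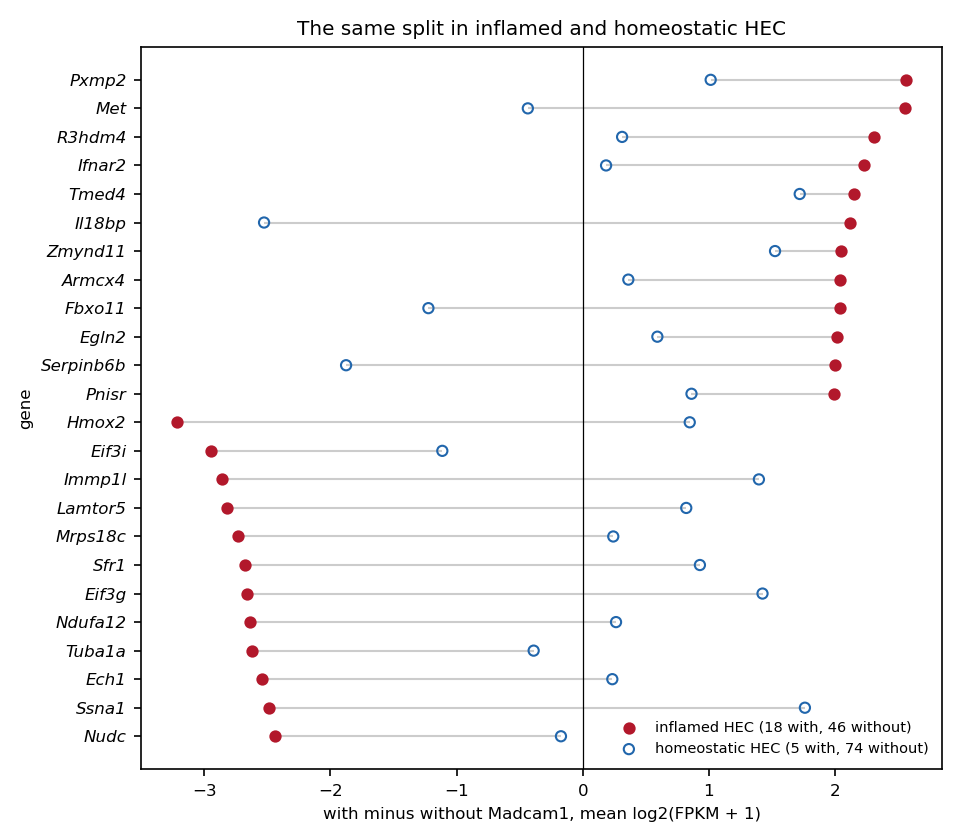
For each of the 24 named genes on the y axis, the x axis gives the difference in mean log2(FPKM + 1), with minus without Madcam1, in inflamed HEC (filled, 18 and 46 cells) and homeostatic HEC (open, 5 and 74 cells). Of the 12 genes higher in inflamed cells 8 lie right of 0 in homeostatic cells, and of the 12 lower genes 3 lie left of it.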

How the data were processed

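Each cell had its own library, made on the Fluidigm C1 system with the Nextera XT kit, per the labels' protocols. The authors deposited FPKM values for 24049 gene symbols, and CASAVA 1.8, RSEM 1.2.18 and the build mm10 are named in the submitters' processing notes, without roles, order, annotation or filters. These values hold no counts, and no count model was fitted. Here log2(FPKM + 1), class means, SD over cells and exact Clopper-Pearson 95% intervals were computed with numpy 2.4.6 and scipy 1.17.1, with no added scaling. Reads were amplified and carry no molecular tags, so they are not separate molecules. A difference on this scale understates the change of low genes. A gene was tested at 1 FPKM in 10% of the cells of either class, and called at a difference of 1. Named genes were the 12 furthest each way at 1 FPKM in 50% of a class, without predicted and clone names, ribosomal protein, haemoglobin and small RNA genes. Members of the 20 gene lists and 11 marker lists were named in addition, and a few of these were chosen after their values were seen. The members and lists were chosen with earlier results of these data known. In the lists, 4 of 393 symbols had no row, and 1 further list member is not reported here. Depth was approximated from the steps of low FPKM values, checked on simulated data. Cells were matched on gene number, 18 against 18. Gene positions are those of GENCODE M21 (GRCm38), which held 94.6% of the symbols. Doublets were not called.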

Additional observations from a re-analysis of the deposited data

How the results depend on the processing

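The counts of genes were recomputed under 13 alternatives, which here include changes of the filter, and also with each cell left out in turn. Leaving out cycling cells and cells with other markers together was chosen after seeing the data. Genes higher by 1 or more numbered 294 and became 650 at a Madcam1 limit of 10, 726 for cells at 10 or more against cells at 0, 762 with a pseudocount of 0.1, 44 with a pseudocount of 10, 1467 as ratios of arithmetic means and 586 in matched cells. Genes lower, 763, became 1595, 125 and 2498 with the pseudocounts of 0.1 and 10 and as ratios of arithmetic means. Genes differing either way, 1057, became 1852 for 10 or more against 0, and 2357, 169 and 3965 under the same 3 settings. With each cell left out in turn they ranged from 281 to 340 higher, 712 to 889 lower and 1026 to 1170 either way, and the median of all genes from -0.13 to -0.07. Signs turned for Jam2 (0.15 at the limit of 10, 0.025 for 10 or more against 0), Ndufb9 (0.17 at the limit of 10), Sdhb (0.0802 at the limit of 10, 0.0916 for 10 or more against 0, 0.16 as a ratio of arithmetic means), Cox5a (1.03 at the limit of 10, 0.59 for 10 or more against 0) and Pgk1 (0.34 in matched cells); the cause was not tested. Among the 75 named genes and list members called, 17 fell to 0.76 to 0.99 in size when some single cell was left out. They were Bgn, Bst1, Cox5a, Creld2, Cycs, Gbp6, H2-Aa, Ier2, Jam2, Ndufv1, Pdgfb, Sdha, Sec61g, Sparcl1, Spcs1, Tpi1 and Vwf. None was among the 24 named genes, which were chosen for the largest differences. Of the 24 named genes, 11 had the same sign in homeostatic HEC (8 of the higher and 3 of the lower), 8 at the limit of 10 (7 and 1) and 9 in matched cells (4 and 5). Only 3 homeostatic HEC reached the limit of 10. In that setting 3133 of 9555 genes were higher and 680 lower, with a median of 0.37 over all genes. No paired analysis was possible because cell numbers pair no cells across the classes, and no test was run. Low FPKM limit the smallest values, and 18 cells limit any share.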

Other observations

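Some markers of other cell types differed by 1 or more, while other markers of the same types were listed at 0. Further members were detected: 3 of 8 measured lymphatic, 2 of 10 fibroblast, 3 of 7 T lymphocyte and 2 of 5 platelet markers passed the filter. Of those 3 T lymphocyte markers, 2 had a positive difference, unlike Lck. Lyve1, a receptor of lymphatic endothelium and some blood vessels, reached 1 FPKM in 8 of 18 cells with Madcam1 and 12 of 46 without. Its difference was 1.55. Prox1 and Reln, markers of lymphatic endothelium, were listed at 0 in all 64 inflamed cells. Ccl21a of the same list was also higher, as given above. Pdpn, Flt4 and Mmrn1 were above 0 in some cells but did not pass the filter. Bst1, an ectoenzyme of stromal and venous cells, reached 1 FPKM in 17 of 18 and 33 of 46 cells, a difference of 1.12. The fibroblast collagens Col1a1 and Col1a2 were listed at 0 throughout. Pdpn, Pdgfra and Il7 of the fibroblast list were above 0 in some cells but did not pass the filter. Lck, a T cell kinase, was lower in cells with Madcam1 (-1.20), reaching 1 FPKM in 1 of 18 and 12 of 46 cells. Cd3g and Cd4 were listed at 0 throughout, while Cd3e and Cd2 were above 0 in some cells but did not pass the filter. Pf4, a platelet chemokine, was lower (-1.23), in 4 of 18 and 20 of 46 cells, and the platelet genes Ppbp, Gp9 and Gp1bb were listed at 0 throughout. No cell of either class reached 10 FPKM for 3 or more markers of the pericyte, fibroblast, T lymphocyte, myeloid, erythroid or platelet lists.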
